A study of Mus musculus with 4 samples.

Results

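MHC class I molecules carry peptides from inside a cell to its surface, and the 10 genes described here encode the molecules themselves and the machinery that supplies and loads their peptides. They were chosen by name: H2-K1, H2-D1 and B2m (heavy and light chains), Tap1, Tap2 and Tapbp (peptide transport and loading), Psmb8, Psmb9 and Psmb10 (immunoproteasome) and Nlrc5 (transactivator). All 10 had an entry among the 53845 genes and loci counted, and all 10 passed the filter on low counts that left 17504 genes for testing. RNA-seq was run on small intestinal crypts, the glands at the base of the villi in which the stem cells divide, from C57BL/6 mice. The samples were 2 libraries labelled wildtype (WT) and 2 labelled Vil-CREPTKO, in which a Cre recombinase driven by the villin promoter deletes a floxed part of Rprd1b, the gene for CREPT, in the intestinal epithelium. CREPT is a regulator of transcription. The mice were not injured or otherwise treated, and the study used young adults of both sexes, with 2 mice per genotype for this RNA-seq. The study bred Vil-CREPTKO mice by crossing floxed mice with and without Cre, while the labels of the WT libraries say wildtype and do not give the Cre or floxed allele.

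In the class I pathway, proteasomes cut cytosolic proteins into peptides, the TAP transporter moves the peptides into the endoplasmic reticulum, and tapasin helps to load them onto a heavy chain bound to beta-2-microglobulin. Interferon gamma is known to raise the genes of this pathway through factors such as IRF1, and NLRC5 acts at class I promoters together with the RFX complex (Rfx5, Rfxap and Rfxank), CREB-type factors and NF-Y. Intestinal epithelial cells express class I molecules, which the lymphocytes lying between them read.

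The known elements of class I promoters can be seen in the sequence just upstream of the genes. The stretches below are shown because H2-K1 and B2m encode the 2 chains of one molecule, were the 2 members of highest level, and carry these elements in different combinations. They are reference sequence from RefSeq (GRCm38.p6), written 5′ to 3′ on the strand of the gene, at chr17:34000349-34000467 (minus strand) for H2-K1 and chr2:122147538-122147648 (plus strand) for B2m. Capitals mark, on either strand, an NF-kB motif (GGGATTCCC), an ISRE-like motif (GAANNGAAA or GAAANNGAA, the kind of element that interferon regulatory factors bind), a CRE core (TGACG) and a CCAAT box (CCAAT, which reads ATTGG on the other strand).
H2-K1: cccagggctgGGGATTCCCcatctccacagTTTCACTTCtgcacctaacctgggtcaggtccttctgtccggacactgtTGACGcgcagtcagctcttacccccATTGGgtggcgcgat
B2m: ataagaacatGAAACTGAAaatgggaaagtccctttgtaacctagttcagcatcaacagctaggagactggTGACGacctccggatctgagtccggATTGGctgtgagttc

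In H2-K1 the NF-kB motif lay 110 bases before the start of transcription, the ISRE-like motif 90, the CRE core 41 and the CCAAT box 16. In B2m the ISRE-like motif lay 139 bases before the start, the CRE core 78 and the CCAAT box 53, with no match to the NF-kB letters. H2-D1, the other classical heavy chain gene, had all 4 motifs in the order of H2-K1, and the aligned stretches of both genes were identical at 107 of 119 positions (89.9%). Among 32851 promoter windows of 250 bases, the NF-kB letters were found in 0.301%, the ISRE-like letters in 12.5%, the CRE core in 17.8% and the CCAAT box in 33.8%. All 4 were found in 4 windows (0.0122%), which belonged to H2-K1, H2-D1 and H2-Q7. Promoter windows were present for 8 of the 10 genes, and not for Tap2 and Nlrc5. The RefSeq starts of Tap1 and Psmb9 lie 226 bases apart on chromosome 17 and point away from each other, with 1 CRE core and 1 CCAAT box between them. In GENCODE, from which the gene coordinates below come, longer transcripts start within or beyond this stretch, and a longer H2-D1 transcript covers the one compared with H2-K1, so both lie in annotated untranslated exon there. Tapbp had 2 CCAAT boxes only, and the windows of Psmb8 and Psmb10 held none of these letters. The motifs overlap in no printed stretch, and a match is a description of the letters, not of a bound site.

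The libraries held 47241049 to 49369315 counts, and the 10 genes took 0.352% to 0.450% of them. The deleted gene, Rprd1b, had 60.5 and 61.6 CPM (read counts scaled to the size of the library) in WT and 26.3 and 29.0 CPM in Vil-CREPTKO. Its log2 fold change was -1.14, with a standard error (SE) of 0.12 and an adjusted p of 0.0041. Adjusted p-values here come from edgeR's quasi-likelihood test with Benjamini-Hochberg adjustment over all tested genes, unless DESeq2 is named. WT replicate 2 was the only library with a high level of Xist (863 CPM) and had 0 counts over 4 Y-linked genes, so WT held a library of each sex while both Vil-CREPTKO libraries were male by these genes. Epithelial markers such as Epcam were high in all 4 libraries (a summed level of 8327 to 9287 CPM over 7 genes), with 0 of 7 past the test. Lymphocyte markers were present too: their summed level was 1032 and 808 CPM in WT and 779 and 662 CPM in Vil-CREPTKO, 0 of 18 tested passed, and their median log2 difference was -0.31. Among them the granzyme gene Gzma had 442 and 355 CPM in WT and 317 and 277 CPM in Vil-CREPTKO, and Cd8a 91.0 and 64.2 against 62.2 and 51.7 CPM. Myeloid markers summed to 17.1 to 33.7 CPM and stromal and endothelial markers to 3.89 to 20.6 CPM. The part of other cells in the values below was not tested. In RNA from a tissue, fewer cells of a type and less RNA per cell cannot be told apart.

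None of the 10 class I presentation genes differed between the groups in edgeR's quasi-likelihood test (adjusted p under 0.05). In it 0 were lower and 0 higher, against 2.29% of all tested genes lower and 0.423% higher. DESeq2 also called 0. At an unadjusted p under 0.05, each tool found 1, the immunoproteasome gene Psmb10, on the lower side, where 9.76% of all genes had such a p in edgeR (4.49% on the higher side). A count of 1 in 10 is thus near the background. With the further demand of an over 2-fold change, the shares of all genes were 1.34% lower and 0.297% higher. The fitted log2 fold changes (Vil-CREPTKO minus WT) ran from -0.44 to 0.082 with a median of -0.17, beside a median of -0.0060 over all tested genes. Of the 10 genes 9 were below 0, and of all 17504 tested genes 8913 were. The values of both groups overlapped in 9 of the 10 genes. Psmb10 was the exception on the lower side, where 24.2% of all genes had no overlap, and no member was on the higher side, where 21.0% had none.

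**Figure D1:**
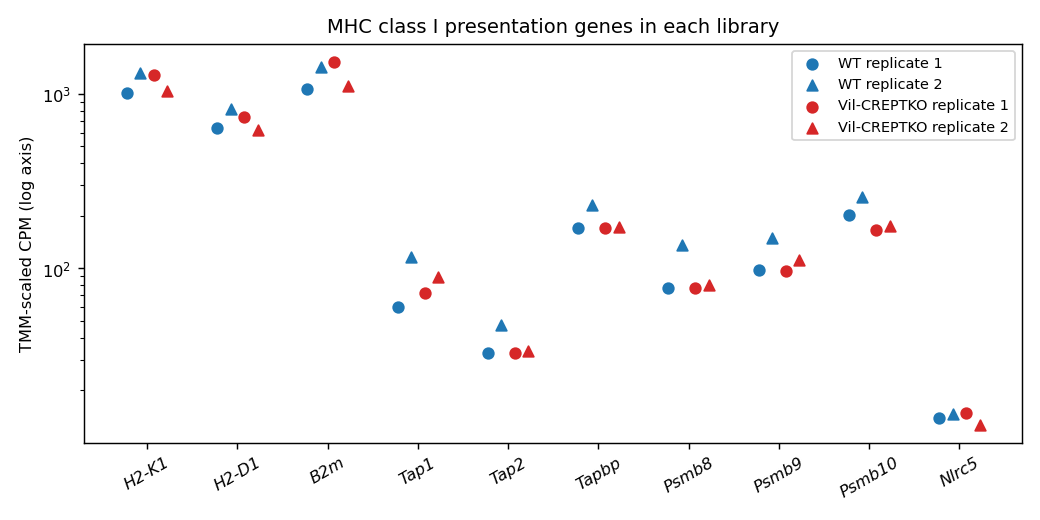
TMM-scaled CPM (log axis) of each of the 10 class I presentation genes, 1 point per library, WT in blue and Vil-CREPTKO in red, circles for replicate 1 and triangles for replicate 2. WT replicate 2 is the highest library in 8 of the 10 genes, and only for Psmb10 do both red points lie below both blue points.

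Expressed per kilobase of merged exon, so that genes can be compared, the mean level over the 4 libraries was highest for B2m (1492 CPM per kb), then H2-K1 (396) and H2-D1 (273). Psmb10 followed with 117 CPM per kb, then Tapbp with 51.3. Psmb9 (31.1) and Psmb8 (27.5) were neighbours whose ranges over the libraries overlapped, as did those of Tap1 (15.5) and Tap2 (9.71). Nlrc5 had the lowest level, 1.65 CPM per kb. The chains of the class I molecule thus had the highest levels and their transactivator the lowest, and the order was the same in each of the 4 libraries. With the longest coding transcript as the length, Psmb9 (84.2) came before Tapbp (64.3).

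The genes of the class I chains did not differ between the groups beyond the spread of the libraries. H2-K1 (ENSMUSG00000061232, chromosome 17, 33996017 to 34000347, minus strand, GRCm38) encodes the K heavy chain. It had 1017 and 1314 CPM in WT and 1283 and 1044 CPM in Vil-CREPTKO. The lower and the higher WT library each had a near match among the Vil-CREPTKO libraries, and the log2 fold change was -0.0024 (SE 0.22, 95% interval -0.50 to 0.50). H2-D1 (ENSMUSG00000073411, chromosome 17, 35262730 to 35267499, plus strand) encodes the D heavy chain and had 639 and 819 CPM in WT and 737 and 626 CPM in Vil-CREPTKO. Its groups overlapped, with a log2 fold change of -0.098 (SE 0.20, 95% interval -0.55 to 0.36). Of the 100-base stretches of the longest coding transcript of H2-D1, 4.64% also occur in transcripts of other genes, mostly H2-Q1. Some of its reads could therefore be split between them. The longest coding transcript of H2-K1 shared 0 such stretches, with only exact matches of that length counted. B2m (ENSMUSG00000060802, chromosome 2, 122147686 to 122153083, plus strand), the gene of beta-2-microglobulin, had 1066 and 1428 CPM in WT and 1522 and 1117 CPM in Vil-CREPTKO. It was the only member with a fitted difference above 0 (0.082, SE 0.24, 95% interval -0.47 to 0.63), and its libraries overlapped as those of the heavy chains did. The adjusted p in the edgeR test was 0.997 for H2-K1, 0.889 for H2-D1 and 0.925 for B2m. As a fold (Vil-CREPTKO over WT), the 95% interval ran from 0.705 to 1.41 for H2-K1 and from 0.722 to 1.55 for B2m.

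The genes of peptide transport and loading were highest in WT replicate 2 and close to each other in the remaining libraries, apart from Tap1. Tap1 (ENSMUSG00000037321, chromosome 17, 34187553 to 34197225, plus strand) encodes a subunit of the peptide transporter and had 59.9 and 116 CPM in WT and 72.6 and 89.6 CPM in Vil-CREPTKO. Both Vil-CREPTKO values lay between the WT values, and the log2 fold change was -0.12 (SE 0.27, adjusted p = 0.899 in the edgeR test). Tap2 (ENSMUSG00000024339, chromosome 17, 34203527 to 34216321, plus strand), which encodes its partner subunit, had 32.8 and 47.3 CPM in WT and 32.9 and 33.8 CPM in Vil-CREPTKO. WT replicate 1 and both Vil-CREPTKO libraries were within about 1 CPM of each other, and WT replicate 2 alone stood higher. The fitted log2 difference of Tap2 was -0.27 (SE 0.17, adjusted p = 0.562 in the edgeR test). Tapbp (ENSMUSG00000024308, chromosome 17, 33915899 to 33929292, plus strand), the gene of tapasin, had 170 and 232 CPM in WT and 171 and 173 CPM in Vil-CREPTKO. Here too WT replicate 1 lay beside the Vil-CREPTKO libraries, and the log2 difference was -0.23 (SE 0.17, adjusted p = 0.632 in the edgeR test). The strand setting of the counting was not stated. The exons of Tap1 and Psmb9 overlap on opposite strands by 212 bases (3.87% of the exons of Tap1), and 24.9% of the exons of Tapbp lie opposite Gm19412, which had 0 counts. A further 4.11% of the exons of Tapbp overlap Zbtb22 on the same strand, which had 1157 to 2049 counts.

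Psmb8 and Psmb10, both of the immunoproteasome, had the lowest fitted differences of the 10. Each immunoproteasome gene encodes a catalytic subunit that takes the place of a standard one and changes the peptides that are cut. Psmb10 (ENSMUSG00000031897, chromosome 8, 105935735 to 105938444, minus strand) had 204 and 255 CPM in WT and 167 and 174 CPM in Vil-CREPTKO. Both Vil-CREPTKO libraries were below both WT libraries, with means of 229 ± 36.5 (SD, n = 2) and 171 ± 5.24 CPM (SD, n = 2), or 74.3% of WT. The log2 fold change of Psmb10 was -0.43 (SE 0.16, 95% interval -0.78 to -0.072) with an adjusted p of 0.240 in the edgeR test, so the difference did not pass. It stayed below 0 in all 12 alternative analyses (-0.58 to -0.25), with adjusted p-values of 0.0999 to 0.737 by the tool used in each.

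Psmb8 (ENSMUSG00000024338, chromosome 17, 34197721 to 34201454, plus strand) had 77.7 and 136 CPM in WT and 77.5 and 80.4 CPM in Vil-CREPTKO. WT replicate 1 lay between the Vil-CREPTKO libraries and WT replicate 2 far above them. The log2 difference of -0.44 (SE 0.23, 95% interval -0.95 to 0.077, adjusted p = 0.437 in the edgeR test) therefore rested on WT replicate 2. It was 0.024 without that library and -0.79 without WT replicate 1, when the adjusted p was 0.0215 with the lone WT library assumed to vary like the Vil-CREPTKO libraries. Psmb9 (ENSMUSG00000096727, chromosome 17, 34181987 to 34187764, minus strand) had 97.9 and 150 CPM in WT and 96.6 and 111 CPM in Vil-CREPTKO. Its groups overlapped at the low end, with a log2 difference of -0.25 (SE 0.19, adjusted p = 0.642 in the edgeR test).

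The standard subunits that these 3 replace were slightly higher in both Vil-CREPTKO libraries than in both WT libraries, and none passed the test. Of all tested genes, 21.0% likewise had both Vil-CREPTKO libraries above both WT libraries. Psmb5, the counterpart of Psmb8, had 66.2 ± 0.364 and 73.6 ± 0.939 CPM in WT and Vil-CREPTKO (SD, n = 2 each, adjusted p = 0.607 in the edgeR test). Psmb6, the counterpart of Psmb9, had 134 ± 4.20 and 143 ± 6.99 CPM (SD, n = 2 each). Psmb7, the counterpart of Psmb10, had 69.7 ± 2.84 and 82.0 ± 2.95 CPM (SD, n = 2 each, adjusted p = 0.399 in the edgeR test). A ratio of the subunits within a library does not depend on the scaling between libraries. The log2 ratio of Psmb10 to Psmb7, in CPM per kb, was 2.59 and 2.84 in the WT libraries against 2.07 and 2.06 in Vil-CREPTKO, a difference of -0.65. The ratio of Psmb8 to Psmb5 was -1.68 and -0.86 in the WT libraries against -1.85 and -1.77 in Vil-CREPTKO, a difference of -0.54, with WT replicate 1 close to the Vil-CREPTKO libraries. For Psmb9 to Psmb6 it was -1.38 and -0.84 in the WT libraries against -1.58 and -1.27 in Vil-CREPTKO, and the groups overlapped. With 2 libraries against 2, an exact permutation test of such a ratio cannot give a two-sided p below 0.333, so the ratios are descriptions. Of the 100-base stretches of Psmb5, 24.9% occur elsewhere, mostly in Gm3375, which had at most 6 counts. Of the exons of Psmb7, 11.8% lie opposite Nek6, which had 3327 to 3908 counts, beside 3456 to 4131 for Psmb7.

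**Figure D2:**
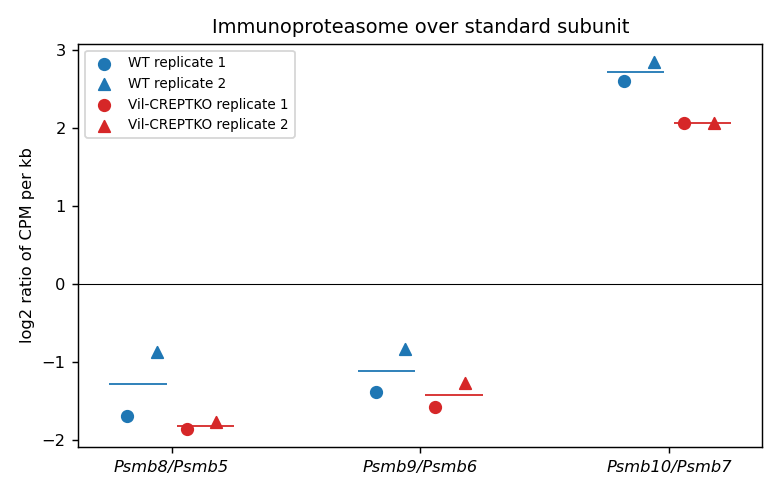
Log2 ratio of each immunoproteasome subunit gene to the standard subunit gene it replaces, in CPM per kb of merged exon, 1 point per library, with a horizontal line at each group's mean. For Psmb10 to Psmb7 both Vil-CREPTKO points (2.07 and 2.06) lie below both WT points (2.59 and 2.84), while for Psmb9 to Psmb6 the groups overlap.

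Nlrc5 (ENSMUSG00000074151, chromosome 8, 94434356 to 94527272, plus strand), the transactivator of class I genes, was nearly level across the libraries, with 13.9 and 14.6 CPM in WT and 14.8 and 12.7 CPM in Vil-CREPTKO. These values came from 626 to 719 counts per library. The log2 fold change was -0.051 (SE 0.16, 95% interval -0.42 to 0.32, adjusted p = 0.932 in the edgeR test).

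Much of the variation among the 10 genes was between the WT libraries. WT replicate 2 was the highest library for 8 genes, and Vil-CREPTKO replicate 1 for the remaining 2, B2m and Nlrc5. WT replicate 1 was the lowest library for 5. The members' mean deviation from their own means, in log2 CPM, was -0.17 and 0.32 in WT replicates 1 and 2, against -0.053 and -0.10 in Vil-CREPTKO replicates 1 and 2. Without WT replicate 2, which leaves 3 male libraries, 8 of the 10 fitted differences were above 0 and their median was 0.057. Without WT replicate 1 all 10 were below 0, with a median of -0.47 and 1 call, Psmb8. The direction of the members as a group thus changed with the WT library used. Sex and library cannot be told apart here, since only 1 library was female. The summed level of lymphocyte markers was highest in WT replicate 1, not in WT replicate 2, and the mitochondrial share of counts was 6.93% and 6.75% in the WT libraries against 10.2% and 7.62% in Vil-CREPTKO.

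**Figure D3:**
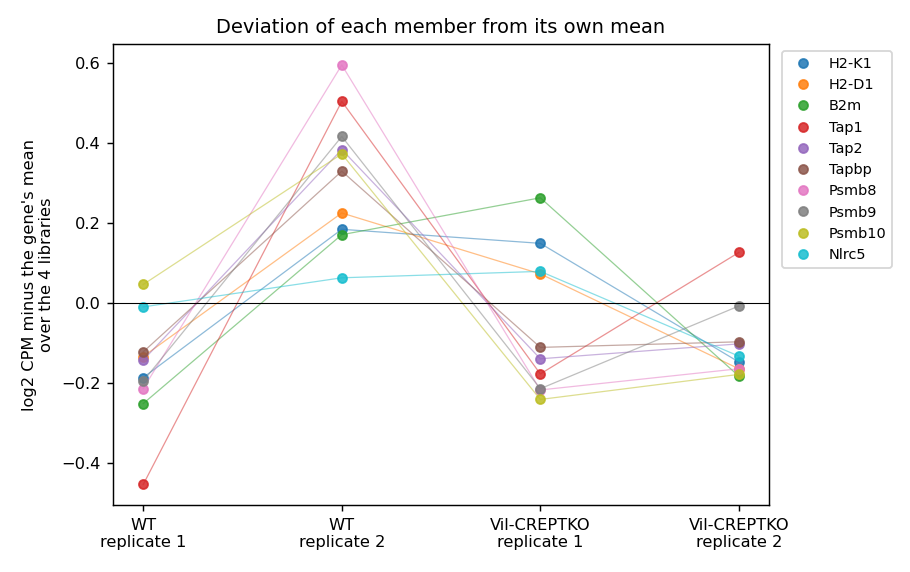
Log2 CPM of each of the 10 genes minus its own mean over the 4 libraries, by library; a thin line joins the points of a gene. Points in WT replicate 2 all lie above 0, from 0.063 for Nlrc5 to 0.60 for Psmb8, whereas in Vil-CREPTKO replicate 1 the heavy and light chain genes and Nlrc5 lie above 0 and the other genes below it.

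The chain genes and the processing genes ordered the Vil-CREPTKO libraries differently, as a description with no test. H2-K1, H2-D1 and B2m were higher in Vil-CREPTKO replicate 1 than in replicate 2, while Tap1, Tap2, Tapbp, Psmb8, Psmb9 and Psmb10 were the other way round. Among 5669 other genes with a mean log2 CPM of at least 5, the 5 whose profile over the 4 libraries was closest to the members' mean profile were Sap30l (Euclidean distance 0.024 on the log2 scale), Pde9a (0.067), Alas1 (0.076), Ppard (0.086) and Pla2g16 (0.089). A profile over 4 libraries is a description only.

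Of 68 further genes of the class I pathway and its regulators, 67 had an entry and 64 were tested. In the edgeR test 2 fell in Vil-CREPTKO, Rfx5 and Irf7, and 0 rose. Over all genes 2.29% were called lower, which is near the share of these 64. At an unadjusted p under 0.05, 9 were lower and 2 higher, beside 9.76% and 4.49% of all genes. The median log2 difference over the 64 was -0.031. DESeq2 called 4 lower and 0 higher, and over all 28324 genes it was given it called 623 lower and 183 higher.

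Both genes that fell were regulators. Rfx5, which encodes the subunit that names the RFX complex, had 10.2 and 10.5 CPM in WT and 3.61 and 3.99 CPM in Vil-CREPTKO, from 519 and 518 against 157 and 196 counts. The WT libraries were almost identical, and both Vil-CREPTKO libraries had 36.8% of their level on average. The log2 fold change of Rfx5 was -1.44 (SE 0.20, adjusted p = 0.00847 in the edgeR test), and it passed in 12 of 12 alternatives (-1.53 to -1.38), including the one without the female library. Rfx5 spans 94954075 to 94961561 of chromosome 3 (plus strand), and the antisense gene B230398E01Rik lies opposite 26.8% of its exons and had at most 8 counts. The remaining subunit genes of the complex, named after their values were seen, did not pass: Rfxap had 16.8 ± 0.92 CPM in WT and 19.5 ± 1.32 CPM in Vil-CREPTKO (SD, n = 2 each, adjusted p = 0.588 in the edgeR test), and Rfxank 14.6 ± 0.49 and 10.7 ± 0.60 CPM (SD, n = 2 each, adjusted p = 0.229 in the edgeR test). Both Vil-CREPTKO libraries lay above both WT libraries for Rfxap and below them for Rfxank.

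Irf7, an interferon regulatory factor gene, had 56.7 and 74.7 CPM in WT and 38.1 and 36.2 CPM in Vil-CREPTKO. Both Vil-CREPTKO libraries were below both WT libraries, with a log2 fold change of -0.82 (SE 0.15, adjusted p = 0.0262 in the edgeR test). It passed in 10 of 12 alternatives. It did not pass without WT replicate 2 (-0.61, adjusted p = 0.101) or after a correction for GC content and length (-0.72, adjusted p = 0.0571). Among the regulators with the highest level per kb, Ifngr1, a chain of the interferon gamma receptor, had 126 ± 6.01 CPM in WT and 135 ± 0.656 CPM in Vil-CREPTKO, and Ifngr2, its partner, had 156 ± 22.7 and 142 ± 11.2 CPM (SD, n = 2 each). Irf1, the interferon regulatory factor that acts on class I genes, had 144 ± 27.6 and 146 ± 15.0 CPM (SD, n = 2 each, adjusted p = 0.972 in the edgeR test). Ifng, the ligand, had at most 6 counts in a library and was too low to be tested. Of the 30 regulators, 2 were lower and 0 higher, beside 2.29% and 0.423% of all genes, with a median log2 difference of -0.035.

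Of the 18 other class I and class I-like genes tested, 0 passed in the edgeR test. On the lower side 2 had an unadjusted p under 0.05 in it, where 9.76% of all genes did. Of the fitted differences 14 were below 0 (median -0.27), as were 8913 of all 17504 tested genes. The 3 with the highest level per kb were H2-Q2, H2-T23 and H2-T3. H2-Q2 had 467 and 657 CPM in WT and 641 and 456 CPM in Vil-CREPTKO, with an overlap like that of H2-K1. H2-T23, which encodes the nonclassical molecule Qa-1, had 203 and 282 CPM in WT and 168 and 135 CPM in Vil-CREPTKO, with no overlap. Its log2 difference of -0.68 (SE 0.19) had an adjusted p of 0.124 in the edgeR test and of 0.0165 by DESeq2. Other genes shared 7.28% of its 100-base stretches. H2-T3, another nonclassical gene, had 183 ± 27.9 and 170 ± 20.6 CPM (SD, n = 2 each).

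Of the 9 further loading and trimming genes, 0 passed in the edgeR test, and the median log2 difference was 0.096. At an unadjusted p under 0.05 in that test, 1 was lower and 1 higher, beside 9.76% and 4.49% of all genes. Calr, an endoplasmic reticulum chaperone of the heavy chain, had 696 ± 15.6 CPM in WT and 744 ± 123 CPM in Vil-CREPTKO, and Pdia3, the oxidoreductase of the loading complex, had 575 ± 12.8 and 604 ± 47.2 CPM (SD, n = 2 each). Sar1b, a GTPase of vesicles that leave the endoplasmic reticulum, had 157 and 180 CPM in WT and 271 and 198 CPM in Vil-CREPTKO, with a log2 difference of 0.48 (SE 0.18, adjusted p = 0.257 in the edgeR test). Tapbpl, which encodes the tapasin-related protein that edits the bound peptides and is named after its values were seen, had 45.9 and 60.7 CPM in WT and 30.6 and 35.4 CPM in Vil-CREPTKO. Its groups did not overlap, and the log2 difference of -0.69 (SE 0.16) had an adjusted p of 0.0648 in the edgeR test and 0.0139 by DESeq2. Tapbp, its homologue, had a difference of -0.23.

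Of the 7 standard catalytic proteasome and activator genes, 0 passed in the edgeR test, with a median log2 difference of 0.092. On the lower side 1 had an unadjusted p under 0.05 in it, where 9.76% of all genes did. Psme1 and Psme2 encode the partner chains of the interferon-induced proteasome activator. Psme1, named after its values were seen, had 157 and 195 CPM in WT and 135 and 132 CPM in Vil-CREPTKO (adjusted p = 0.250 in the edgeR test). Psme2 had 240 and 280 CPM in WT and 268 and 251 CPM in Vil-CREPTKO, with a log2 difference of -0.0031. The groups were apart for Psme1 and overlapped for Psme2.

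MHC class II genes, which present peptides taken up from outside the cell, had larger fitted differences in the same libraries. Of 8 tested, 2 fell in the edgeR test (2.29% of all genes did), and the median log2 difference of the 8 was -1.11, beside -0.17 for the class I members. The number called was 4 with DESeq2, 7 with library-size scaling, 7 with no filter on low counts and 1 after the GC and length correction. Over all genes these settings called 623 of 28324, 597 of 17504, 908 of 28324 and 295 of 17504 lower, in that order. H2-DMb2, named after its values were seen, was the only one with a fitted difference above 0 (0.41, SE 0.65, adjusted p = 0.847 in the edgeR test). H2-Aa, the class II alpha chain, had 108 and 204 CPM in WT and 66.0 and 46.7 CPM in Vil-CREPTKO (a difference of -1.47, SE 0.28, adjusted p = 0.0323 in the edgeR test). H2-DMa, a chain of the class II loading factor, had 25.5 and 44.0 CPM in WT and 15.2 and 15.3 CPM in Vil-CREPTKO (-1.19, SE 0.23, adjusted p = 0.0359). Cd74, the invariant chain and the class II gene of highest level per kb, had 334 and 632 CPM in WT and 204 and 209 CPM in Vil-CREPTKO (-1.23, SE 0.27, adjusted p = 0.0548 in the edgeR test). H2-Ab1 (-1.03) and H2-Eb1 (-0.88) also missed the threshold, with adjusted p-values of 0.0943 and 0.190. For H2-Aa, H2-DMa, Cd74, H2-Ab1 and H2-Eb1, WT replicate 2 was again the highest library. For H2-DMb2 the highest was Vil-CREPTKO replicate 2 (0.815 CPM, beside 0.813 CPM in WT replicate 2). Without WT replicate 2, which left 1 WT library, the H2-DMa difference shrank to -0.74 and the H2-Aa difference to -0.94. H2-DMa did not pass once GC content and length were corrected for (-1.09, adjusted p = 0.0634 in the edgeR test). H2-Aa did not pass with DESeq2 (-1.45, adjusted p = 0.0811). The class II median was -0.48 without WT replicate 2 and -1.48 without WT replicate 1. The difference between class I and class II genes was not tested.

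**Figure D4:**
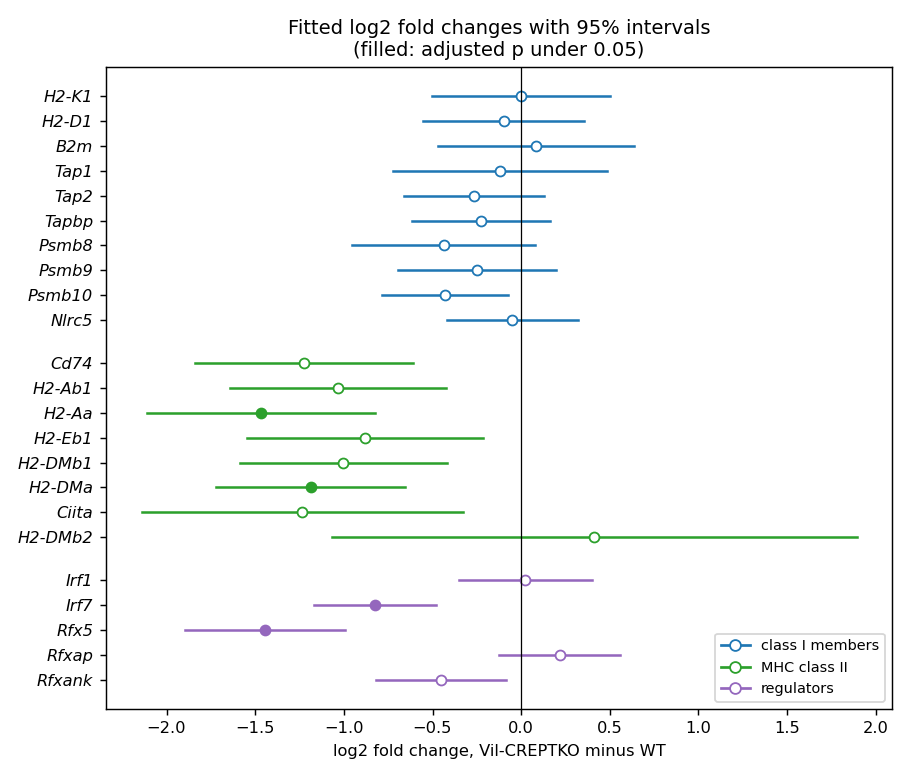
Fitted log2 fold change (Vil-CREPTKO minus WT) with its 95% interval for the 10 class I presentation genes, the MHC class II genes and 5 regulators; filled points have an adjusted p under 0.05 in the edgeR test. The intervals of 9 class I genes cross 0, that of Psmb10 does not (-0.78 to -0.072) but its adjusted p was 0.240, and Rfx5, Irf7, H2-Aa and H2-DMa are filled.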

How the data were processed

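The values were whole-number read counts per Ensembl gene, as deposited by the authors, 1 column per library. According to the methods, reads were mapped with Bowtie2 to transcripts of GRCm38.p6 and quantified with RSEM, and the submitters' processing notes add CASAVA 1.8. Other versions, the strand setting and the counting step were not given in the sources used here. Whole-gene counts of overlapping or near-identical genes may therefore be shared. Symbols, coordinates and lengths came from GENCODE M21 (99.1% of 53845 identifiers matched).

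Counts were fitted in R 4.3.3 with edgeR 4.0.16 (filterByExpr, TMM scaling, quasi-likelihood test with group as the only term, two-sided, Benjamini-Hochberg adjustment over 17504 genes). The test was run on simulated counts in which every gene had the same dispersion. That setting is simpler than these data, so it does not show how the test behaves here. CPM values are TMM-scaled. Alternatives were DESeq2 1.42.0, 3 other scalings (RLE, library size, upper quartile), no filter, at least 10 counts in every library, a replicate block, a GC and length correction (loess in R, span 0.5) and each library left out. Depth was 47241049 to 49369315 counts, so spread between libraries, with a common coefficient of variation of 0.188, set the precision. Replicates differed by 49.8 (WT) and 70.1 (Vil-CREPTKO) chi-square units per gene, far over the 1 that sampling gives. The study gives 2 mice per genotype, so p-values rest on the spread between single animals, with information on spread shared over genes. The WT libraries differed in sex, so their spread includes any difference between the sexes.

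The members and lists were chosen with earlier results of these data known. Named by rule were the members, Rprd1b, the genes of each list with adjusted p under 0.05 and its 3 of highest level per kb, Psmb5, Psmb6 and Psmb7, and the 5 genes nearest in profile. Lymphocyte, myeloid, stromal, epithelial and sex genes served as checks. Of the listed genes, 1 is not reported here.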

Additional observations from a re-analysis of the deposited data

How the results depend on the processing

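Psmb10, Rfx5 and Irf7 kept their direction under all 12 alternatives, and no member passed the test under any of them except Psmb8 without WT replicate 1. The number of members lower was 0 to 1 over the analyses that left out 1 library. The number of other pathway genes lower, 2 in the analysis reported, was 4 with DESeq2, 4 with library-size scaling, 5 with no filter on low counts, 1 after the GC and length correction, 1 with an over 2-fold change required and 1 to 4 with 1 library left out (1 without WT replicate 2 and 4 without WT replicate 1). The number higher was 0 to 1, the 1 being Ifnlr1 without Vil-CREPTKO replicate 2. Over all 17504 genes, 400 were lower in the analysis reported, 235 with an over 2-fold change required and 597 with library-size scaling. The number was 295 of 17504 after the GC and length correction, 623 of 28324 with DESeq2 and 908 of 28324 with no filter. The log2 fold change of H2-K1, close to 0, turned to 0.013 with DESeq2, 0.015 with RLE, 0.035 with upper-quartile scaling, 0.0018 with the replicate block and 0.082 after the GC and length correction. B2m turned to -0.015 with library-size scaling and -0.0099 after that correction, and Nlrc5 to 0.021 after it. With 1 library left out, the log2 fold changes ranged from -0.18 to 0.20 for H2-K1, -0.27 to 0.094 for H2-D1, -0.16 to 0.31 for B2m, -0.52 to 0.44 for Tap1, -0.51 to 0.023 for Tap2, -0.43 to 0.019 for Tapbp, -0.79 to 0.024 for Psmb8, -0.52 to 0.089 for Psmb9 and -0.16 to 0.057 for Nlrc5. The cause of these turns was not tested. Library-size scaling moved the median of all genes to -0.098, and the members' median to -0.25. Over the genes, the deviations of same-numbered libraries from their group means were nearly uncorrelated (correlation 0.028). With 2 libraries per group, and WT libraries of different sex, this cannot decide whether the samples were paired. With the replicate block 0 members passed (lowest adjusted p = 0.294 with edgeR) and 3 other pathway genes were lower, Tapbpl (adjusted p = 0.0291), Irf7 and Rfx5. Over all genes 452 of 17504 were lower with that block. Using the longest coding transcript as the length moved the WT mean log2 ratio from -1.27 to -0.22 for Psmb8 to Psmb5 and from 2.71 to 1.53 for Psmb10 to Psmb7, with no effect on the difference between groups.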
